A study of Mus musculus with 8 samples.

Results

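The small nucleolar RNAs, their relatives in the nucleus and cytoplasm, and the Snhg transcripts from which some of them are cut were compared between the white quadriceps of mice without Acot2 in muscle and of control mice. Members were the genes whose names start with Snora, Snord, Scarna, Rnu, Rny or Snhg and that had reads in at least 4 of the 8 libraries. The rule took 65 of the 182 genes with these names, in a table of 54091 genes. Of the 65, 14 were H/ACA snoRNAs (Snora), 23 C/D snoRNAs (Snord), 6 Cajal body RNAs (Scarna), 6 named as small nuclear RNAs (Rnu), 2 Y RNAs (Rny) and 14 Snhg hosts. All mice were chow-fed males aged 11 to 14 weeks, and the muscle was taken in the morning. The 4 control mice were Loxp/Loxp at Acot2. The 4 knockout mice (Acot2 mKO) are labelled with CKM Cre, a recombinase under the muscle creatine kinase promoter, and with loss of Acot2 in muscle. No Cre is named for the controls, so the recombinase and the loss of Acot2 cannot be told apart. Acot2 encodes a mitochondrial acyl-CoA thioesterase.

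H/ACA snoRNAs direct the conversion of uridine to pseudouridine in ribosomal RNA, and C/D snoRNAs direct ribose methylation; a few of each kind take part in cutting the ribosomal RNA precursor instead. Cajal body RNAs do the same modifications on the small nuclear RNAs of the spliceosome. Most of these RNAs are released from introns of a host gene, which may encode a protein or be an Snhg transcript with no known protein, while a few have promoters of their own. Y RNAs are made by RNA polymerase III and bind the proteins Ro60 and La. All but the hosts are short and have no poly(A) tail, so how much of them reaches a library depends on the RNA extraction and the library type as well as on the cells.

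The sequences on which the results turn are shown here so that their length and their class features can be seen (GENCODE M21, GRCm38, written as DNA, 5′ to 3′). The first 4 have the H/ACA form. Capitals mark the ACA that stands 3 bases before the 3′ end, which all 7 tested H/ACA members hold. Snora73b (chr4:132352322-132352526 on the minus strand) lies within Rcc1 and Snhg3, Snora23 (chr7:110046364-110046547 on the plus strand) within Ipo7, Snora21 (chr11:97781639-97781775 on the minus strand) within a host gene not analysed here, and Scarna13 (chr12:105031075-105031349 on the minus strand), a longer Cajal body RNA that stayed level, within Snhg10.
Snora73b: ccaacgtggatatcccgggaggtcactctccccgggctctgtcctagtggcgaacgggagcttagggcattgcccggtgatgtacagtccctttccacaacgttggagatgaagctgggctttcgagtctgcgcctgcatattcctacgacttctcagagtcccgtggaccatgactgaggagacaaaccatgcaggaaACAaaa
Snora23: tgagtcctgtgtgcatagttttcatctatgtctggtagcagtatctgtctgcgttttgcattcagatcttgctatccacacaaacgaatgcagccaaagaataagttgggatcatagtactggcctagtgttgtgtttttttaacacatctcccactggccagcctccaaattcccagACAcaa
Snora21: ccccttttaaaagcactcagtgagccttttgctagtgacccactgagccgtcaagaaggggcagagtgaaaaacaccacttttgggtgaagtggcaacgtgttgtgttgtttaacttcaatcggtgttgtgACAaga
Scarna13: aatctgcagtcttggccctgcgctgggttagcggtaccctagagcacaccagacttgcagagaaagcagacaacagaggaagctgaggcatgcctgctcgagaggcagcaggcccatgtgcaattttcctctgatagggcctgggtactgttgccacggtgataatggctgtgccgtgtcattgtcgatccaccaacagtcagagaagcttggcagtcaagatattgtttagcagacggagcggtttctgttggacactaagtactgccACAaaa
In the C/D members below, capitals mark the first TGATGA (box C) and the last CTGA (box D). All 4 tested C/D members hold both in this order, as do 73 of the 97 annotated Snord genes. Snord17 (chr2:144265979-144266216 on the minus strand) lies within Snx5, and Snord118 (chr11:69073427-69073561 on the plus strand) was placed in no host on its strand.
Snord17: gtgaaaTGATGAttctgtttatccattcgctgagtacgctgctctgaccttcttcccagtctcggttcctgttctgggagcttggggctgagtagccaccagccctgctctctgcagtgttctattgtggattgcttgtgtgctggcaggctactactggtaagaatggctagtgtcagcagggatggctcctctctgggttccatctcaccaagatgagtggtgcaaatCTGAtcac
Snord118: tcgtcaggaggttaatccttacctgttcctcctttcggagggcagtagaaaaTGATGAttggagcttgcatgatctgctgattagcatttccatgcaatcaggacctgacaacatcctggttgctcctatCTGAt
The last 4 show no host on their strand either. In the Y RNAs Rny1 (chr6:47788069-47788180 on the minus strand) and Rny3 (chr6:47781624-47781725 on the plus strand), which were 72.3% identical over 112 aligned columns, capitals mark the terminal TTTT. In the small nuclear RNAs Rnu11 (chr4:132270080-132270213 on the minus strand) and Rnu12 (chr15:83149644-83149794 on the plus strand), both of the minor spliceosome, they mark AATTTTT.
Rny1: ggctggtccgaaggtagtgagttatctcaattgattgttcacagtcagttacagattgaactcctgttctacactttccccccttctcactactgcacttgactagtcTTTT
Rny3: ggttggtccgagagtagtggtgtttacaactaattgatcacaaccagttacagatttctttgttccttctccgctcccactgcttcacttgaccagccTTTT
Rnu11: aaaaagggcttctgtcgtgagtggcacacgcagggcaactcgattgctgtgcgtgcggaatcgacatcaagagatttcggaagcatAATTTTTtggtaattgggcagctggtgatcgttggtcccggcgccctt
Rnu12: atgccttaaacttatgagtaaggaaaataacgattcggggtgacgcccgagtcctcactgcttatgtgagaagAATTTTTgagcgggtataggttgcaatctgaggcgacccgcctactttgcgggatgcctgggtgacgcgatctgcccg
Only the transcribed strand was searched. The ACA stood 3 bases before the end of 33 of the 40 annotated Snora genes and in 1.57% to 2.22% of the first bases of other transcripts trimmed to the same lengths. TGATGA followed by CTGA was found in 1.39% (length of Snord118) and 4.28% (length of Snord17) of such stretches, a terminal TTTT in 0.467% and 0.531%, and AATTTTT in 0.959% and 1.11%. These are matches of letters and not mapped sites. The marked TGATGA and CTGA do not overlap each other.

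Depth ran from 30415373 to 48834273 recovered reads per library, and the lowest and the highest library were both Acot2 mKO. As a check of the labels, Acot2 lay between 149 and 251 normalized reads in the controls and between 42.8 and 53.7 in the knockouts, where a normalized read is a read divided by the authors' factor for its library. The tissue label was met by fast glycolytic muscle genes, whose 11 markers summed to between 6459610 and 7680940 normalized reads in the controls and between 6088360 and 7399750 in the knockouts. Adipocyte markers (10 of 10 measured) summed to 24311 in control replicate 2 and 10474 in control replicate 3, against 2827 to 4475 in the other 6 libraries. Slow fibre markers (8 of 8 measured) summed to 6979 in Acot2 mKO replicate 3 and 17978 in replicate 4, against 1642 to 2566 elsewhere. Over the whole table, 2 of 13638 tested genes passed an adjusted p of 0.05 (0.0147%; limma with Benjamini-Hochberg adjustment). The labels and animal numbers point to 8 separate mice.

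Few of the named genes were well measured. Of the 65 members, 32 reached 10 normalized reads in 4 or more libraries and were tested, namely 7 H/ACA snoRNAs, 4 C/D snoRNAs, 4 Cajal body RNAs, 2 small nuclear RNAs, 2 Y RNAs and 13 hosts. Of the 117 named genes that were not members, 92 were listed at 0 in all libraries and 25 had reads in 1 to 3. At the edge of the rule, 7 genes had reads in exactly 4 libraries and 5 in exactly 3. Among short RNA genes with an annotated length, the rule kept 20 of 90 under 100 bases (22.2%), 7 of 20 of 100 to 129 bases (35.0%) and 24 of 56 of 130 bases or more (42.9%). Only 1 of the 90 shortest genes, Scarna17, was tested, against 14 of the 56 longest. None of the 18 Snord116 genes, the repeat copies of the Prader-Willi locus, and none of the 5 Rnu3 genes, which encode the U3 snoRNA, was a member. Many of these genes share sequence with other annotated genes, hosts that overlap them included. At least 1 stretch of 50 bases was shared, on either strand, with another annotated gene in 93 of 114 named short RNA genes that were not members (81.6%), 8 of 32 untested members (25%) and 10 of 19 tested ones (52.6%). All 156 such stretches of Snora73b were shared, with Snora73a, Snhg3 and Gm17300, and all 85 of Rnu11 with Gm28872. Counts of Snora73b may thus mix with Snora73a and Snhg3. Gm17300 and Gm28872 overlap from the opposite strand, so counts could mix with theirs only if strand was ignored. No source used here says how shared reads were counted or whether the counting used strand.

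No member passed the adjusted threshold (0 of 32, lowest adjusted p = 0.9995 by limma with Benjamini-Hochberg adjustment, and 0 of 32 by limma-voom on the recovered reads). At an unadjusted p under 0.05 limma took 7 members (7 also by limma-voom), against 2.91% of all tested genes. All 7 were lower in Acot2 mKO libraries, a direction with 1.72% of all tested genes, and all 7 were short RNAs: Snora21, Snora73b, Snora78, Rny1, Rny3, Rnu11 and Rnu12. Of these 7, Snora73b, Rny1, Rny3 and Rnu12 shared an order of libraries, with control replicate 3 the lowest control and Acot2 mKO replicate 2 the highest of its group, so the 7 were not counted as independent observations. In all, 17 of 19 short RNAs had a difference below 0 (median -0.75 on the log2 scale), against 8 of 13 hosts (median -0.03), while the median of all 13638 tested genes was 0.00. The differences were below 0 for 7 of 7 H/ACA members (median -0.70), 4 of 4 C/D members (median -0.80), 2 of 4 Cajal body RNAs (median -0.07), 2 of 2 small nuclear RNAs (median -0.82) and 2 of 2 Y RNAs (median -0.87). With the median of all tested members set equal in all libraries 15 of 19 short RNAs and 1 of 13 hosts were below 0, and with that of the short RNAs set equal, which by construction centres them, 9 of 19 and 0 of 13 were; the median of all genes then stood at 0.40 and 0.76. The filter could be met by a single group, so these counts describe the tested members and not all 65. In bulk RNA, fewer cells that hold these RNAs and less of them per cell cannot be told apart.

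**Figure D1:**
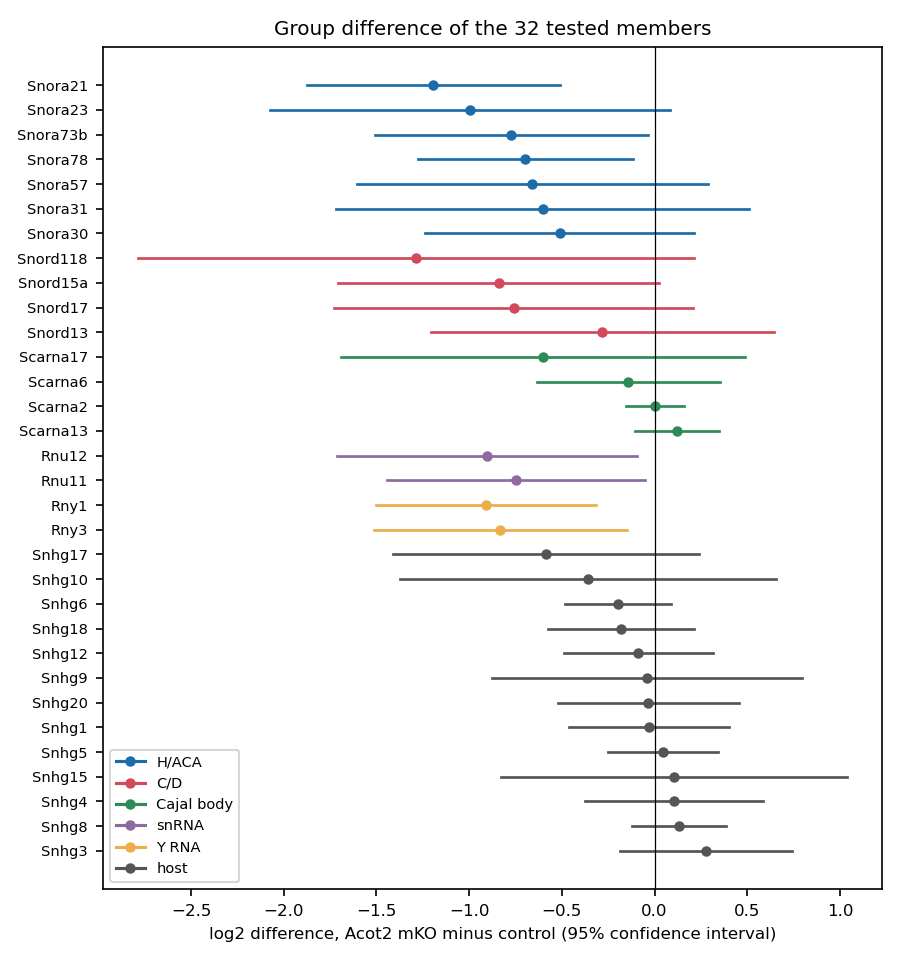
Difference between groups (Acot2 mKO minus control, log2 of normalized reads + 1) for the 32 tested members by class. Points are limma estimates and lines their 95% confidence intervals (n = 4 per group); 17 of 19 short RNA points lie below 0, the hosts lie on both sides of 0, and no member passes the adjusted threshold.

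The values of single libraries show how the lower medians arose. Among H/ACA snoRNAs, Snora73b, which takes part in cutting the ribosomal RNA precursor, was the most abundant. Its control libraries held 2052, 1815, 838 and 1897 normalized reads (replicates 1 to 4) and its Acot2 mKO libraries 850, 1784, 737 and 619. Control replicate 3 thus lay among the Acot2 mKO values, and Acot2 mKO replicate 2 among those of the other controls. The means were 1650 ± 551 and 997 ± 533 (SD, n = 4 each), with a log2 difference of -0.77 (SE 0.34, adjusted p = 0.9995 by limma). Snora23 had 350, 416, 107 and 526 in control and 148, 335, 86.8 and 119 in Acot2 mKO libraries, and the same replicate of each group stood apart from its fellows. Snora78 had 356, 286, 169 and 368 against 237, 216, 140 and 127. Control replicate 3 was again the lowest control, below 2 of the Acot2 mKO libraries, though here Acot2 mKO replicate 1 was the highest of its group. Snora57 had 56.3, 52.6, 13.4 and 58.4 against 27.8, 30.6, 20.6 and 20.5, so that its control replicate 3 was the lowest of all 8 libraries. The rarest members of the class, Snora30 (9.13 to 24.9) and Snora31 (4.57 to 25.1), overlapped between groups as well.

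Snora21, a guide for ribosomal RNA, was the member whose groups did not overlap. Its control libraries held 48.3, 36.9, 38.2 and 46.5 normalized reads and its Acot2 mKO libraries 26.9, 24.5, 11.4 and 13.5. Every Acot2 mKO value lay below every control value, which held for 0.997% of all tested genes and for no other member. The Acot2 mKO mean was 0.449 of the control mean, and the log2 difference was -1.19 (SE 0.31, 95% confidence interval -1.88 to -0.51). The exact two-sided permutation p was 0.0286, the smallest that 4 against 4 libraries allow. Any gene whose groups do not overlap gets this p. Snora21 was singled out among the tested members for that trait, so the p only restates it. The limma p adjusted over all genes was 0.9995.

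Of the 4 tested C/D snoRNAs, 3 had the order of libraries seen in Snora73b. Snord17, a long member of the class, held 1139, 1504, 348 and 1381 normalized reads in control and 545, 1093, 420 and 398 in Acot2 mKO libraries. Its control replicate 3 was the lowest of all 8, so that the groups overlapped widely. The log2 difference was -0.76 (SE 0.44, adjusted p = 0.9995 by limma). Snord15a, a methylation guide in an intron of the ribosomal protein gene Rps3, had 115, 80.6, 37.2 and 108 against 50.5, 77.0, 33.1 and 26.9. Snord118, the U8 snoRNA needed for making large-subunit ribosomal RNA, was near the limit of counting with 14.1, 19.0, 8.60 and 44.4 against 6.73, 17.1, 1.14 and 11.3. In both, control replicate 3 was the lowest control and Acot2 mKO replicate 2 the highest of its group. Snord13, which guides acetylation of small-subunit ribosomal RNA, was near the limit of counting too, with 10.1, 11.2, 6.69 and 14.1 against 5.05, 8.56, 7.99 and 12.7. Its control replicate 3 was the lowest control, but Acot2 mKO replicate 4 was the highest of its group.

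Both Y RNAs and Rnu12 were low in most Acot2 mKO libraries and in control replicate 3. Rny1 held 477, 453, 238 and 649 normalized reads in control and 209, 330, 206 and 188 in Acot2 mKO libraries. Apart from Acot2 mKO replicate 2, its Acot2 mKO values lay below all control values. The means were 454 ± 169 and 233 ± 65.4 (SD, n = 4 each), a log2 difference of -0.91 (SE 0.27). Rny3 had 248, 255, 112 and 360 against 146, 167, 97.1 and 106, and its control replicate 3 lay between the Acot2 mKO values. For Rnu12 the values were 200, 216, 66.9 and 223 against 84.2, 132, 60.5 and 76.5. Control replicate 3 lay below all other controls and below 3 of the 4 Acot2 mKO libraries. Rnu11 had 42.2, 31.3, 32.5 and 62.8 against 14.3, 31.8, 27.4 and 25.5, and its groups met only where Acot2 mKO replicate 2 reached control replicate 2. The adjusted p was 0.9995 by limma for each of these 4.

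**Figure D2:**
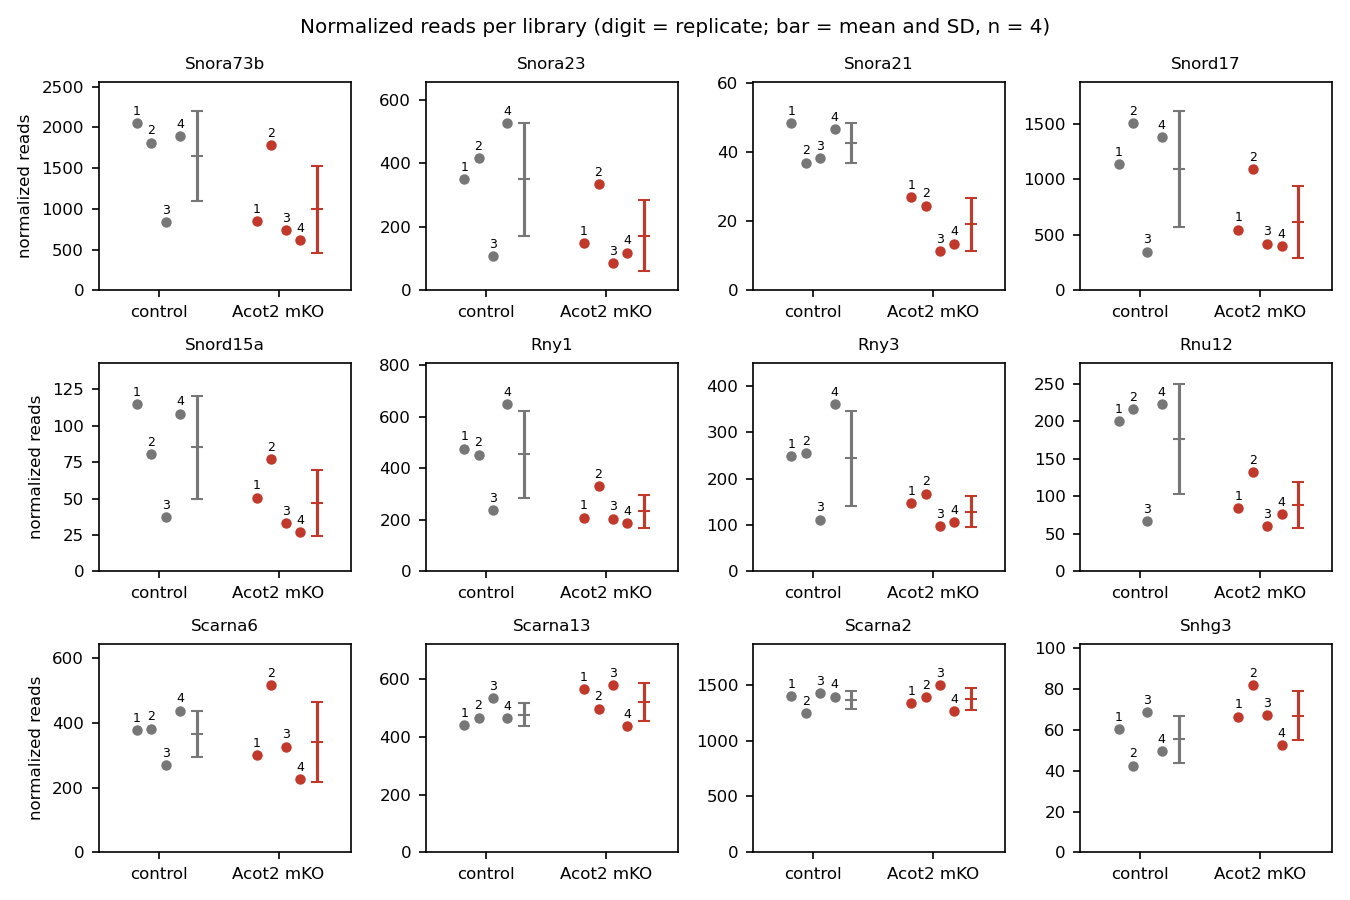
Normalized reads (linear axis from 0) of 12 members in each library, control in grey and Acot2 mKO in red, with the replicate digit beside each point and the mean and SD (n = 4) at the side. In Snora73b, Snora23, Snord17, Snord15a, Rny1, Rny3, Rnu12 and Scarna6 control replicate 3 is the lowest control and Acot2 mKO replicate 2 the highest of its group. Snora21, Scarna13, Scarna2 and Snhg3 have no such order.

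Of the Cajal body RNAs, the 3 longer ones had estimated differences near 0, with a wide interval for Scarna6. Scarna2, the longest short RNA member at 414 bases, held 1398, 1246, 1421 and 1393 normalized reads in control and 1331, 1386, 1494 and 1259 in Acot2 mKO libraries. The groups lay on top of each other, with a log2 difference of 0.00 (95% confidence interval -0.15 to 0.16). Scarna13 (275 bases) had 441, 467, 534 and 465 against 567, 498, 579 and 438, a difference of 0.12 (-0.11 to 0.35). Control replicate 3 was its highest control. Scarna6 (265 bases) had 377, 382, 268 and 437 against 301, 516, 327 and 225, a difference of -0.14 (-0.63 to 0.35). This interval is too wide to show that Scarna6 was level. It had the order of the shorter RNAs, with control replicate 3 the lowest control and Acot2 mKO replicate 2 the highest of all. Scarna17 (79 bases) was rare, at 4.48 to 13.0 in control and 3.43 to 10.1 in Acot2 mKO libraries.

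Sums over the tested members of a class showed the same libraries. Abundant members dominated them, so they largely repeat single genes. Means over the libraries were 1324 for Snora73b, 853 for Snord17 and 1366 for Scarna2, each the most abundant tested member of its class. The tested H/ACA members summed to 2907, 2646, 1192 and 2942 normalized reads in control and 1327, 2426, 1009 and 919 in Acot2 mKO libraries. The tested C/D members summed to 1277, 1615, 400.2 and 1548 against 608, 1196, 462 and 449, and the Y RNAs to 725, 708, 350 and 1010 against 355, 498, 303 and 293. In each of these 3 classes control replicate 3 was low and Acot2 mKO replicate 2 was the highest of its group. Summed Cajal body RNAs (1927 to 2406) and summed hosts (1008 to 1179) were level over all 8 libraries. Relative to each member's mean over the libraries, the median short RNA stood at 0.61, 0.43, -0.39 and 0.79 in control and at -0.20, 0.03, -0.79 and -0.62 in Acot2 mKO libraries (log2). Neighbouring animal numbers couple control replicates 1, 2, 3 and 4 with Acot2 mKO replicates 2, 4, 3 and 1. In each couple the Acot2 mKO median was the lower one. The labels do not give these couples as pairs, and they were compared after the values had been seen. Control replicate 3 was the lowest control with Acot2 mKO replicate 2 the highest of its group in 11 of 19 short RNAs, in 0 of 13 hosts and in 8.8% of all tested genes, an order that was picked out after the values had been seen. Control replicate 4 was the highest of the 8 libraries for 11 short RNAs, and Acot2 mKO replicates 3 and 4 were the lowest for 8 and 6. Replicate 3 of the controls was not shallow (36234851 reads), and Acot2 mKO replicate 2 was the shallowest library. Without control replicate 3, 12 members had an unadjusted p under 0.05 in place of 7 and the lowest adjusted p of a member was 0.397. Without control replicate 1 or 4, 3 and 2 members did. Leaving out Acot2 mKO replicate 2 gave 11 such members, and leaving out replicate 1, 3 or 4 of that group gave 4, 3 and 2. No member passed the adjusted threshold in any of these fits.

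**Figure D3:**
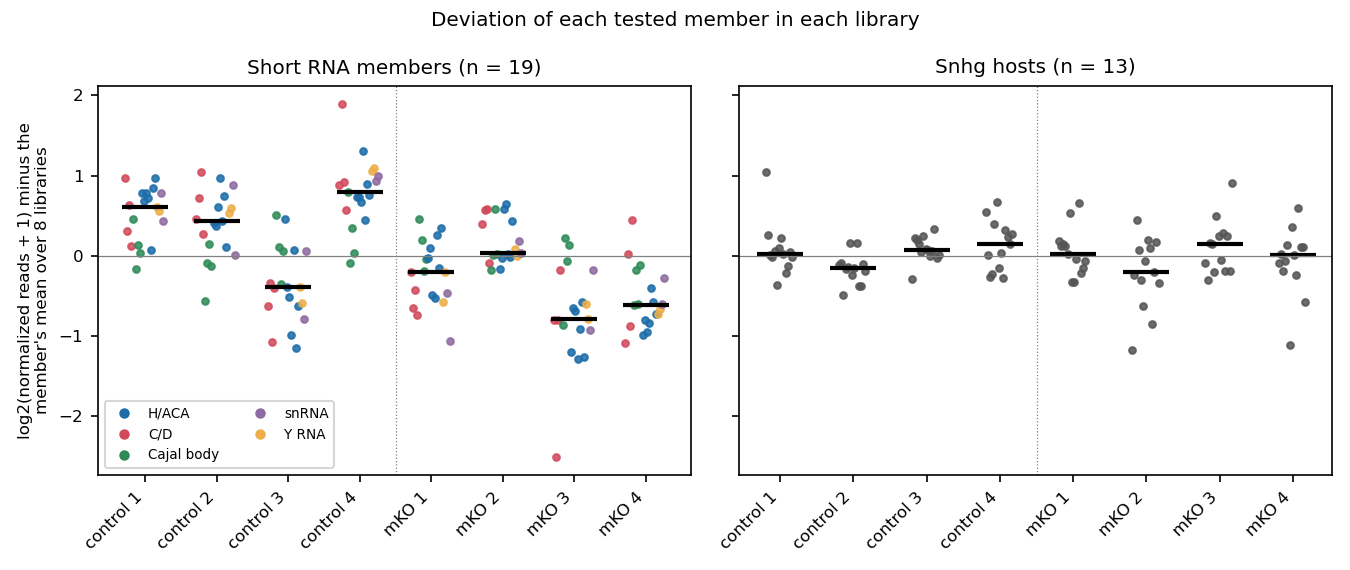
Deviation of each tested member from its own mean over the 8 libraries (log2 of normalized reads + 1), short RNAs by class on the left and Snhg hosts on the right; black bars are medians. The short RNA median is 0.43 or more in control replicates 1, 2 and 4, at 0.03 in Acot2 mKO replicate 2 and below 0 in the other 4 libraries, whereas the host medians stay between -0.21 and 0.15.

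The spread over libraries was wider in short RNA members under 250 bases than in the longer ones. Among members with a mean of at least 100 normalized reads, the highest library exceeded the lowest by 2.90 to 3.71 times in the 3 members of up to 150 bases (Rny3, Rny1 and Snora78) and by 3.31 to 6.06 times in the 4 of 151 to 249 bases (Rnu12, Snora23, Snora73b and Snord17). In the 3 of 250 bases or more (Scarna6, Scarna13 and Scarna2) the ratio was 2.29, 1.32 and 1.20. All 3 are Cajal body RNAs, so length and class cannot be told apart among these members. In short RNA genes outside the naming rule the ratio was 1.51 to 4.97 up to 150 bases (n = 13). It was 2.52 to 3.79 from 151 to 249 bases (n = 5) and 1.26 to 1.91 from 250 bases (n = 4). For all 9677 tested genes at that level the median ratio was 1.32, and 1.89% exceeded 3. All 16 tested short RNA members under 250 bases had a difference below 0, while of the 3 longer ones 1 did. The boundary of 250 bases was set after the values had been seen. Annotated short RNA genes outside the naming rule gave the same picture: 40 of 43 under 250 bases were below 0 (median -0.66) and 7 of 15 of 250 bases or more (median 0.05). None of the 58 passed the adjusted threshold by limma, and 14 had an unadjusted p under 0.05, all lower in Acot2 mKO libraries (24.1%, against 1.72% of all tested genes). Their summed level under 250 bases was 13410, 13048, 6052 and 16896 normalized reads in control and 7232, 10683, 6005 and 5812 in Acot2 mKO libraries, so control replicate 3 and Acot2 mKO replicate 2 stood out there as well. Among the longer ones, Rn7sk (331 bases), the RNA that holds the elongation factor P-TEFb inactive, had 82284 ± 7700 and 85090 ± 6581 normalized reads (SD, n = 4 each). An unequal recovery of short RNA between libraries and an unequal amount in the muscle cannot be told apart in these values.

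Other RNAs were read in the same libraries to see what moved with the short members. Replication-dependent histone mRNAs, most of which also lack a poly(A) tail but are longer, had 5 of 11 tested genes above 0 and 6 below. None passed the adjusted threshold by limma and 2 of 11 had an unadjusted p under 0.05, against 2.91% of all tested genes. Their sum, of which Hist1h1c made up the largest share, lay between 9695 and 11371 normalized reads in control and between 9413 and 11960 in Acot2 mKO libraries. Whether the histone transcripts counted in this muscle lacked a poly(A) tail was not tested. Their sum is therefore no measure of how well RNA without a tail was recovered. Malat1, a long RNA kept in the nucleus, had 55738, 61384, 49628 and 62557 normalized reads in control and 53161, 54633, 36809 and 49388 in Acot2 mKO libraries. Control replicate 3 was its lowest control and Acot2 mKO replicate 2 the highest of its group, an order that 1 of 5 long nuclear RNAs had. Slow fibre markers were high in Acot2 mKO replicates 3 and 4, the 2 libraries with the lowest short RNA medians. With both left out, 16 of 19 short RNAs were below 0 and 1 member had an unadjusted p under 0.05. High adipocyte markers marked control replicates 2 and 3, of which the latter alone was low in short RNA. With both of these left out, 18 of 19 were below 0 and 12 members had an unadjusted p under 0.05. The part of these markers in the short RNA differences was not tested further.

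**Figure D4:**
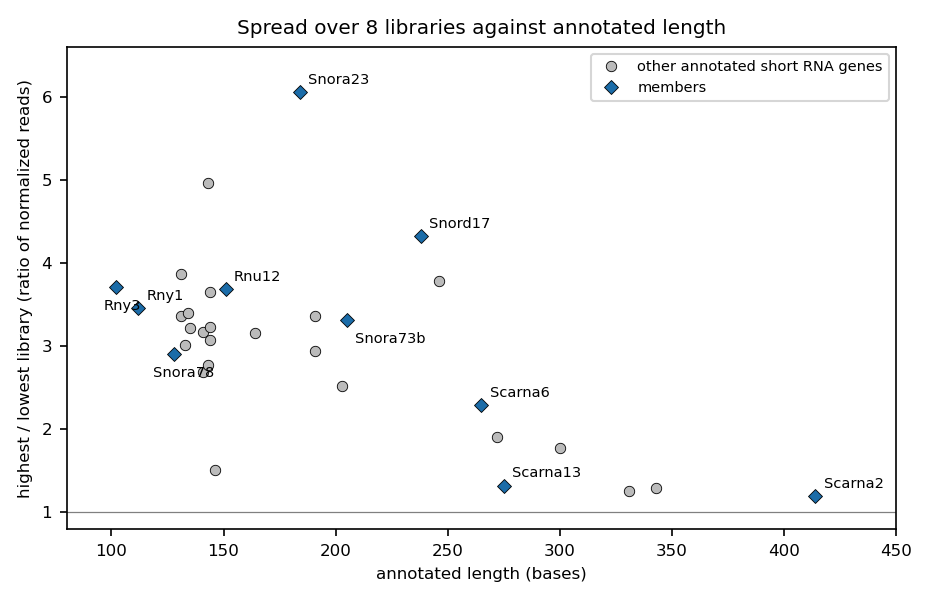
Ratio of the highest to the lowest of the 8 libraries (normalized reads) against annotated length, for short RNA genes with a mean of at least 100 normalized reads; blue diamonds are members, grey circles other annotated short RNA genes. Members under 250 bases lie between 2.90 and 6.06, and those of 250 bases or more between 1.20 and 2.29.

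Tested hosts of the tested short RNAs lacked the library order that several of the RNAs inside them had. Scarna13, Snora30 and Snora78, which also lie inside tested hosts, lacked that order too. For 9 tested short RNA members inside a gene on the same strand, 10 hosts were tested, of which 7 were above 0 and 3 below (median 0.04, range -0.36 to 0.28), and 0 of 10 had an unadjusted p under 0.05. Rcc1 and Snhg3, which carry Snora73b, had differences of 0.28 and 0.28. Snhg3 held 60.3, 42.5, 68.8 and 49.8 normalized reads in control and 66.5, 81.9, 67.4 and 52.4 in Acot2 mKO libraries, with control replicate 3 as its highest control. Ipo7, the importin gene around Snora23, differed by -0.01 (95% confidence interval -0.14 to 0.12). Snx5, a sorting nexin gene around Snord17, differed by 0.12. Rps3, which carries Snord15a, differed by 0.07, and Tpt1, which carries Snora31, by 0.03. The order of libraries seen in the short RNAs was found in 0 of the 10 hosts. It was found in 6 of 55 tested snoRNA hosts outside the Snhg names and in 8.8% of all tested genes. With 10 hosts, a count of 0 thus does not set them apart from other genes. Snhg10 (4.96 to 19.5) and Snhg9 (9.21 to 27.4), the hosts of Scarna13 and Snora78, had few reads, so little can be read from them. Scarna13 was the more abundant product by far, with 477 ± 40.0 normalized reads in control libraries against 14.1 ± 4.28 for Snhg10 (SD, n = 4 each); these are reads per gene, not per length.

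The 13 tested Snhg hosts as a class showed no common direction. Snhg6 was the most abundant in control libraries with 276, 216, 270 and 233 normalized reads, against 251, 196, 187 and 235 in Acot2 mKO libraries. The log2 difference was -0.20 (SE 0.13, adjusted p = 0.9995 by limma), and the groups overlapped. Snhg5 had 230 ± 27.8 and 239 ± 36.9 and Snhg8 193 ± 22.6 and 210 ± 13.7 (SD, n = 4 each), both within the spread of their groups. The lowest difference was that of Snhg17 (-0.59, 95% confidence interval -1.41 to 0.24), whose control values ran from 25.8 to 66.4 and whose Acot2 mKO values ran from 13.4 to 36.2. Snhg3 had the highest (0.28, -0.18 to 0.74). Snhg1 (-0.03), Snhg4 (0.11), Snhg9 (-0.04), Snhg10 (-0.36), Snhg12 (-0.09), Snhg15 (0.10), Snhg18 (-0.18) and Snhg20 (-0.03) lay between these. Intervals of these 13 hosts all held 0, and their bounds ran from -1.41 to 1.04.

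The 33 untested members were rarer still. Their means over the libraries ran from 0.490 to 8.58 normalized reads in the 32 short RNAs, and 19 of the 33 were C/D snoRNAs, 7 H/ACA snoRNAs, 4 in the Rnu group, 2 Cajal body RNAs and 1 a host. Summed, the 7 H/ACA snoRNAs had 15.1, 25.7, 33.4 and 41.1 normalized reads in control and 14.3, 15.9, 16.0 and 4.96 in Acot2 mKO libraries. These include Snora17, with the highest single value of all untested short members (20.1). The 19 C/D snoRNAs, 17 of them under 100 bases, summed to 34.2, 50.4, 35.3 and 45.5 in control and 42.1, 39.1, 34.3 and 39.7 in Acot2 mKO libraries. The groups overlapped, and control replicate 3 lay just above the lowest control. Snord104, the most abundant of these C/D snoRNAs, went the other way with 8.05, 7.83, 6.69 and 4.33 in control and 10.9, 7.34, 11.4 and 12.0 in Acot2 mKO libraries. Among genes named for small nuclear RNAs of the major spliceosome, Rnu2-10 had a mean of 6.93 normalized reads, Rnu1a1 2.91 and Rnu5g 0.706. These are levels of the named rows and not of the RNA: all 115 stretches of 50 bases in Rnu1a1 were shared with other annotated genes, among them Gm22513 (164 bases), which had a mean of 2735 normalized reads. Rnu73b, named like them but a C/D snoRNA in Rps3a1, had 1.73. Snhg11, a host known from neurons, was at 0 to 17.2 in control and 0.842 to 8.56 in Acot2 mKO libraries. Summed over all 32 untested short RNAs, the control libraries had 72.4, 91.8, 80.2 and 115.8 normalized reads and the Acot2 mKO libraries 69.9, 69.7, 67.4 and 54.5 (90.1 ± 18.9 and 65.4 ± 7.31, SD, n = 4 each). Every Acot2 mKO sum lay below every control sum, but the nearest were 69.9 and 72.4. Within each short RNA class the sums of the 2 groups overlapped. These members were not tested.

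Genes for the proteins that bind and build these RNAs showed no called change. Of the 4 H/ACA core proteins, 2 were above and 2 below 0 (median 0.02), among them the pseudouridine synthase Dkc1 with 851 ± 41.6 and 882 ± 63.2 normalized reads (SD, n = 4 each). All 3 tested C/D core proteins were above 0 (median 0.08), including the methyltransferase Fbl with 105 ± 12.5 and 114 ± 13.6. The 17 assembly and Cajal body genes split 9 to 8 (median 0.01), the 23 snRNP protein genes 11 to 12 (median 0.00), and the 19 genes for transcription and end processing of short RNA 10 to 9 (median 0.02). For the Y RNA proteins, Trove2 (Ro60) differed by 0.12 and Ssb (La) by -0.03. Of 55 tested snoRNA hosts outside the Snhg names, 34 were above and 21 below 0 (median 0.02). No gene of these 7 lists passed the adjusted threshold by limma (0 of 123), and 3 of the 123 had an unadjusted p under 0.05 (2.44%, against 2.91% of all tested genes). These 3 were 1 of the 4 H/ACA core proteins, 1 of the 23 snRNP protein genes and 1 of the 19 transcription and processing genes.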

How the data were processed

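Total RNA of white quadriceps from 8 mice was isolated with a Norgen Biotek kit, and libraries came from a stranded TruSeq kit, per the labels' protocols. The submitters' processing notes name DESeq2, cutadapt, FastQC, STAR, HTSeq and GRCm38, without versions. No source used here gives the annotation or the treatment of reads that fit several genes. The authors deposited other values than counts: on the evidence of the numbers, log2 of (normalized reads + 1), with a single factor for each library. Undone, all values below 1000 reads came out whole within 0.1 of a read. The pseudocount of 1 understates changes of rare genes. The 2 groups were fitted with limma 3.58.1 under R 4.3.3 (variance trend). P-values were adjusted by Benjamini-Hochberg over the 13638 genes that reached 10 normalized reads in 4 or more libraries (threshold 0.05). An exact permutation test over 70 relabellings is printed only for the member whose groups did not overlap, which fixes its p in advance. In a simulation of Acot2 mKO against control on 13638 genes, 82 of 100 genes changed by 1 log2 unit and 95 of 100 changed by 2 were called, with 8 false calls. Its noise was drawn separately for each gene, with an SD from the trend over all genes. Short RNA members spread more widely than most genes and many shared an order of libraries, which the simulation left out. The shares called therefore do not tell how often a changed short RNA would be called. Libraries of a group differed by a chi-square of 25.8 to 78.6 per gene, so each counted as 1 replicate. Positions, lengths and sequences came from GENCODE M21, which matched 31 of the 32 tested members; Snhg4 was matched only in a RefSeq table. edgeR was not used. Named were the most abundant and the lowest-p members of each class and all tested hosts; Snora30, Snora31, Snord104 and Malat1's order of libraries were taken up after their values were seen. Members and lists were chosen with earlier results of these data known. Alternatives were other pseudocounts, filters, scalings and centrings, limma-voom, library weights, blocks of neighbouring animal numbers, and left-out libraries.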

Additional observations from a re-analysis of the deposited data

Results flagged for a closer look

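In 5 of 76 groups of 4 libraries examined (each tested member and each class sum, in each group), 1 library lay far from the other 3; chance alone flags about 1 in 20 such groups. Control replicate 3 was the low one in 3 of these. It held 13.4 normalized reads of Snora57 against 52.6 to 58.4 in the other controls, 66.9 of Rnu12 against 200 to 223, and 1192 of the summed tested H/ACA members against 2646 to 2942. Acot2 mKO replicate 2 was the high one for Rny1, with 330 against 188 to 209. Scarna2, the longest Cajal body RNA, was lowest in control replicate 2, with 1246 against 1393 to 1421.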

How the results depend on the processing

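No member passed the adjusted threshold under any of the 21 alternatives, and the table as a whole kept 2 calls except where libraries were centred on the members. Setting the median of all tested members equal in all libraries moved the median of all genes to 0.40, gave 41 calls (lowest adjusted p of a member 0.0709 by limma) and moved the Cajal body median to 0.32 and the host median to 0.36; values that turned above 0 were Scarna6 0.25, Snhg1 0.36, Snhg10 0.031, Snhg12 0.30, Snhg18 0.21, Snhg20 0.36, Snhg6 0.19, Snhg9 0.35 and Snord13 0.11. Setting the median of the tested short RNAs equal, a choice made after seeing the data, moved the median of all genes to 0.76 and gave 16 calls (lowest adjusted p of a member 0.0902). By construction it brought the short RNA median to 0.0098, with class medians of 0.059 for H/ACA, -0.045 for C/D, -0.12 for Y RNA, -0.070 for small nuclear RNA, 0.69 for Cajal body RNA and 0.72 for hosts, and it turned Rnu11 0.0098, Scarna17 0.15, Scarna6 0.61, Snhg1 0.72, Snhg10 0.40, Snhg12 0.67, Snhg17 0.17, Snhg18 0.58, Snhg20 0.72, Snhg6 0.56, Snhg9 0.71, Snora30 0.24, Snora31 0.15, Snora57 0.096, Snora78 0.059 and Snord13 0.47. Scarna2, near 0, was -0.0082 with quantile normalization, -0.0015 with limma-voom and -0.015 with library weights. Without control replicates 2 and 3 together, Scarna2 -0.032 and Snhg15 -0.0021 turned below 0. Without Acot2 mKO replicates 3 and 4 together, the turned values were Scarna2 -0.0045, Scarna6 0.13, Snhg15 -0.046, Snhg4 -0.14 and Snora31 0.09. Leaving out single libraries turned the sign of values near 0, with ranges of Scarna2 -0.041 to 0.041, Scarna6 -0.36 to 0.037, Snhg1 -0.16 to 0.076, Snhg12 -0.17 to 0.0077, Snhg15 -0.10 to 0.41, Snhg20 -0.097 to 0.026, Snhg5 -0.042 to 0.13 and Snhg9 -0.35 to 0.14; the cause was not tested. The remaining alternatives (pseudocounts of 0.5 and 10, both other filters, scaling to total reads) turned no member. With blocks of neighbouring animal numbers, which the labels do not give as pairs, 10 members had an unadjusted p under 0.05 and the lowest adjusted p was 0.995. Low counts limit Snord13, Snord118, Scarna17, Snora31, Snhg9, Snhg10 and Snhg15 most.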
